A study of Mus musculus with 6 samples.

Results

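The genes described here are 42 genes that modify, fold, export and mature collagen, out of 55401 genes in the deposited count table. They were chosen by symbol, and they were proposed with the change between the genotypes in these same libraries already known. Their genotype differences are therefore given as a description, and a p-value adjusted over all genes is not independent evidence for the set. Each gene had 1 row in the table, and all 42 passed the filter on low counts. By role they comprise 10 genes of prolyl hydroxylation, 5 of lysyl hydroxylation and glycosylation, 9 chaperones and foldases, 10 genes of entry into, export from and retrieval to the endoplasmic reticulum (ER), 3 regulators and 5 extracellular enzymes and cofactors. Some of them, such as Hsp90b1, Pdia3, Pdia4 and Sec61a1, serve secreted proteins in general and not collagen alone.

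Bulk RNA sequencing compared mouse inner ear between wild-type mice (WT, n = 3) and mice with the genotype written as Pou3f4y/- (Pou3f4 KO, n = 3). Pou3f4 lies on the X chromosome and encodes a transcription factor with a POU domain that is made in mesenchyme of the ear. By the labels the tissue held cells of every type, though another field calls the cells interstitial, and no treatment agent is named. Age, strain, sex, dissection and mutant allele are absent from the labels. Nothing there ties each library to an animal of its own, so p-values measure the spread between these samples only, which may be technical. Total counts ranged from 18409409 to 23323953 per library. Pou3f4 held 1044 to 2233 counts in WT and 28 to 45 in KO libraries, so it matched the genotype label in each. Xist, which is transcribed from an inactive X chromosome, held 9143 to 15783 counts in WT replicates 1 and 2 and KO replicates 2 and 3, and 6 and 1 in WT replicate 3 and KO replicate 1. Sex-linked reads therefore did not follow the genotype, and the Xist reads of 2 KO libraries go against a hemizygous male label. The KO libraries were much more alike than the WT libraries. Counts of 2 KO libraries differed by a chi-square of 6.69 to 8.15 per degree of freedom, where sampling noise alone gives 1, against 39.7 to 88.7 for 2 WT libraries. No 2 libraries agreed within sampling noise, so each was counted as 1 sample.

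Fibrillar collagen is made as procollagen chains that enter the ER, where prolyl and lysyl hydroxylases and glycosyltransferases modify them before the triple helix forms. Chaperones hold the chains and the finished helix, COPII coats with large-cargo receptors carry procollagen to the Golgi, and proteases outside the cell cut off its propeptides before lysyl oxidases crosslink the fibrils. Loss of many of these genes causes brittle bone disease or other disorders of connective tissue. The ear lies within bone and holds collagen-rich ligament, so several cell types there use this machinery.

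Levels are given as CPM, a gene's counts over the library size times 1000000, with library sizes scaled by the TMM method, and changes as log2 fold changes of KO over WT from edgeR's quasi-likelihood test with Benjamini-Hochberg adjustment over 19687 genes. A gene was called at an adjusted p under 0.05. Of the 42 members, 6 rose in the KO libraries, where 0.213% of all genes tested were called higher, and 0 fell, where 0.183% of all genes tested were called lower (edgeR). At an unadjusted p under 0.05, 28 members were higher and 4 lower, beside 1715 and 2152 of the 19687 genes tested. With DESeq2, 23 were called higher and 1, Colgalt2, lower, against 3.02% and 4.82% of the genes it tested. The genes that rose were Tent5a, Fkbp11, P4ha1, Fkbp14, Lman1 and Sec24d. The rule that chose the members drew on this contrast, so nothing is read from these shares.

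Fitted changes were above 0 for 35 members and below 0 for 7. The median over the members was 0.36, and over all genes tested it was −0.01. In 29 members every KO library lay above every WT library, which was so for 15.0% of all genes tested, and in 4 members every KO library lay below, which was so for 12.7%. The 6 calls did not hold without WT replicate 3 or without any 1 of the 3 KO libraries, where edgeR called 0 of all genes tested higher or lower. There 23 to 27 members had an unadjusted p under 0.05, beside 2087 to 3364 of all genes tested. A replicate block or a term for Xist also ended all 6, in fits that called 1 and 0 of all genes tested. The fitted changes of the 6 were above 0 in each of those fits. In bulk tissue, fewer cells of a type and less RNA per cell cannot be told apart.

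**Figure D1:**
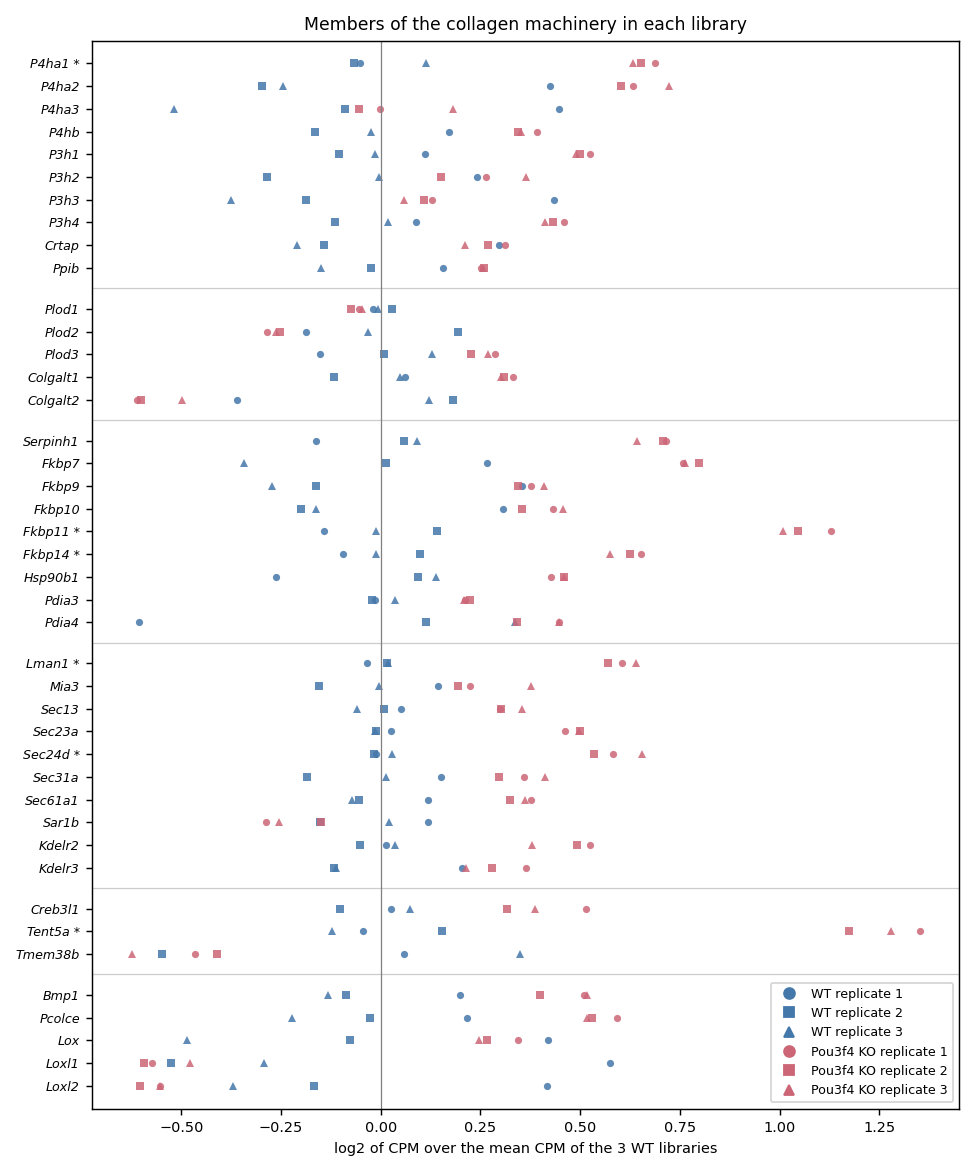
Each row is 1 member, grouped by role in the order of the text, and each point is 1 library: WT in blue and Pou3f4 KO in red, with circles, squares and triangles for replicates 1 to 3. The horizontal axis is log2 of CPM over the mean of the 3 WT libraries, and an asterisk marks the 6 members called by edgeR. KO points sit close together in most rows, while WT replicate 1 often stands apart from the other WT libraries, on the high side for Loxl1 and the low side for Pdia4.

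Prolyl hydroxylation was led in the change between genotypes by the catalytic subunits of prolyl 4-hydroxylase, whose product stabilises the triple helix. P4ha1 (chromosome 10, 59323296 to 59373304 on mm10 in the GENCODE M21 annotation, plus strand) stood at 158, 156 and 177 CPM in the WT libraries and 264, 258 and 254 CPM in the KO libraries. It rose 1.58-fold (0.66, SE 0.08, adjusted p = 0.049), and its groups did not overlap. P4ha2, a second catalytic subunit, stood at 59.0, 35.7 and 37.0 CPM in WT against 68.1, 66.7 and 72.4 CPM in KO. Its fitted change of 0.65 (SE 0.20) was close to that of P4ha1, but WT replicate 1 lay far above the other WT libraries and it did not pass (adjusted p = 0.165). Without WT replicate 1 its change was 0.91 (adjusted p = 0.0041). P4ha3, the third catalytic subunit, was level at 15.3 ± 5.13 CPM in WT against 15.8 ± 1.39 CPM in KO (SD, n = 3 each), with a 95% interval of the change from −0.53 to 0.63.

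P4hb, protein disulfide isomerase and the shared partner subunit of these enzymes, had the highest level per exon length of this role, 303 CPM per kilobase in WT, and stood at 976, 773 and 853 CPM in WT against 1137, 1101 and 1106 CPM in KO. The groups did not overlap, and the change of 0.36 (SE 0.11, adjusted p = 0.161) did not pass. P3h1, Crtap and Ppib form the complex that 3-hydroxylates a proline of type I collagen. P3h1, the enzyme, stood at 150.0 ± 11.3 CPM in WT against 213 ± 2.62 CPM in KO (0.50, SE 0.08, adjusted p = 0.063). Its partners differed less: Crtap stood at 168 ± 33.5 and 202 ± 6.96 CPM (0.26, SE 0.14) and Ppib, a cyclophilin, at 341 ± 36.7 and 407 ± 1.38 CPM (0.26, SE 0.10). Exons of Ppib overlap those of its neighbour Snx22 on the opposite strand only, so part of its reads may be shared if counting ignored the strand. P3h4, a non-enzymatic scaffold that works with lysyl hydroxylase 1, stood at 84.95 ± 6.02 and 115 ± 1.97 CPM (0.43, adjusted p = 0.0752). The isoenzymes P3h2, overlapped on the opposite strand by Gm4524 over 28.4% of its exons, and P3h3 had intervals that spanned 0, from −0.12 to 0.65 and from −0.38 to 0.58. In all, 1 of the 10 genes rose and 9 did not pass.

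In lysyl hydroxylation and glycosylation, 2 fitted changes were above 0 and 3 below, and 0 of the 5 genes passed with edgeR (4 at an unadjusted p under 0.05). DESeq2 called Colgalt1 higher and Colgalt2 lower. Plod1, which hydroxylates lysines within the helix, had the narrowest spread of the WT libraries here, at 168, 173 and 169 CPM, and 164, 161 and 164 CPM in KO. Its KO libraries lay below its WT libraries by a small step, with a change of −0.058 and a 95% interval from −0.22 to 0.11. Plod2, the hydroxylase of the telopeptides that sets the type of crosslink, stood at 165, 215 and 184 CPM in WT against 154, 158 and 157 CPM in KO (−0.27, SE 0.11, adjusted p = 0.248). Plod3, which also carries glycosyltransferase activity, pointed the other way, at 80.2 ± 7.78 and 96.1 ± 2.08 CPM (0.26, SE 0.09, adjusted p = 0.19).

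The 2 collagen galactosyltransferases, which add the first sugar to hydroxylysine, also pointed opposite ways. Colgalt1 stood at 144, 127.5 and 143 CPM in WT against 174, 171 and 170.4 CPM in KO (0.31, SE 0.08, adjusted p = 0.135). Colgalt2 stood at 43.5, 63.3 and 60.7 CPM in WT against 36.6, 36.8 and 39.5 CPM in KO (−0.57, SE 0.15, adjusted p = 0.137). In both genes the groups did not overlap. The difference between their changes was not tested. Without WT replicate 1, Colgalt2 was −0.73 (adjusted p = 0.00592) and Plod2 −0.36 (adjusted p = 0.042), the only members that edgeR called lower in that fit.

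Among the chaperones, 2 of 9 rose, 7 did not pass, and all 9 fitted changes were above 0. Fkbp11 (chromosome 15, 98724366 to 98728198, minus strand), an ER membrane protein of the prolyl isomerase family found in secretory cells, stood at 17.5, 21.2 and 19.1 CPM in WT against 42.1, 39.8 and 38.8 CPM in KO. It rose 2.09-fold (1.06, SE 0.11, adjusted p = 0.0387) from the lowest level per exon length of the chaperones, 7.12 CPM per kilobase in WT. Fkbp14 (chromosome 6, 54577604 to 54597308, minus strand), an isomerase whose loss causes a form of Ehlers-Danlos syndrome, stood at 73.8, 84.3 and 78.2 CPM in WT against 124, 121 and 117 CPM in KO. It rose 1.53-fold (0.62, SE 0.08, adjusted p = 0.049). Both genes had WT libraries close together and KO libraries well above them.

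Serpinh1, the collagen-specific chaperone HSP47, was the most abundant member on both scales, at 1132, 1319 and 1348 CPM in WT against 2078, 2069 and 1978 CPM in KO, or 518 and 836 CPM per kilobase of exon. Its change of 0.69 (SE 0.10) was larger than that of P4ha1, but its adjusted p of 0.0556 did not pass. It passed without the filter on low counts, with the filter of at least 1 CPM in 3 libraries, with limma-voom and with DESeq2. Fkbp7 stood at 73.7 ± 15.3 and 126 ± 1.91 CPM (0.77, SE 0.15, adjusted p = 0.0879), and Fkbp10, a chaperone whose loss causes brittle bones, at 333 ± 68.0 and 444 ± 16.5 CPM (0.41, SE 0.15). Fkbp9 overlapped between groups, because WT replicate 1 at 590.0 CPM lay above 1 KO library at 586 CPM.

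In the edgeR fit with all libraries, the general ER foldases did not pass. Hsp90b1, the ER form of HSP90, stood at 527, 674 and 696 CPM in WT against 849, 868 and 869.6 CPM in KO (0.45, SE 0.12, adjusted p = 0.146). Pdia3, a disulfide isomerase of glycoproteins, stood at 736 ± 16.0 and 854 ± 4.19 CPM (0.21, SE 0.07, adjusted p = 0.193). Pdia4, another disulfide isomerase, stood at 108, 178 and 208 CPM in WT against 224, 209 and 224 CPM in KO. Most of its difference came from WT replicate 1: its fitted change was 0.41 with all libraries and 0.17 without that library.

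In entry, export and retrieval, 2 of 10 genes rose, 8 did not pass, and 9 of the 10 fitted changes were above 0. Lman1 (chromosome 18, 65980738 to 66022580, minus strand), a lectin that carries glycoproteins from the ER to the Golgi and the member with the largest change of this role, stood at 185, 191 and 192 CPM in WT against 288, 281 and 295 CPM in KO. It rose 1.52-fold (0.60, SE 0.07, adjusted p = 0.049). Sec24d (chromosome 3, 123267455 to 123365641, plus strand), a cargo-binding subunit of the COPII coat, stood at 142, 142 and 147 CPM in WT against 215, 208 and 226 CPM in KO. It rose 1.51-fold (0.59, SE 0.07, adjusted p = 0.049). Sec23a, its partner in the inner coat, whose loss causes a skull bone disorder, stood at 134, 131 and 130.5 CPM in WT against 182, 186 and 186 CPM in KO (0.49, SE 0.07). Its adjusted p of 0.0556 missed the threshold, and it passed with upper-quartile scaling, limma-voom and DESeq2.

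The outer coat differed less. Sec13 stood at 123 ± 4.79 and 154 ± 3.34 CPM (0.32, adjusted p = 0.112) and Sec31a at 276 ± 31.9 and 354 ± 14.0 CPM (0.36, adjusted p = 0.165). Mia3, or TANGO1, the receptor that couples bulky procollagen to the coat, stood at 103 ± 10.7 and 124 ± 8.61 CPM (0.27, adjusted p = 0.225). Sec61a1, the channel subunit through which chains enter the ER, stood at 366, 324 and 320.5 CPM in WT against 438, 422 and 433 CPM in KO (0.35, SE 0.09, adjusted p = 0.13). The receptors that return escaped ER proteins stood at 187 ± 5.92 and 258 ± 13.4 CPM for Kdelr2 (0.47, adjusted p = 0.0681) and 123 ± 16.2 and 150 ± 7.86 CPM for Kdelr3 (0.29, adjusted p = 0.228). Sar1b, a GTPase that starts coat assembly, was the exception in direction, at 83.1, 68.8 and 77.7 CPM in WT against 62.7, 69.0 and 64.1 CPM in KO (−0.23, SE 0.09, adjusted p = 0.24), with groups that overlapped.

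Related genes within a family were set beside these members per kilobase of exon, after their values were seen. Sec24d was the most abundant Sec24 gene in both genotypes, at 22.7 CPM per kilobase in WT and 34.2 in KO. Its relatives stood at 16.1 and 18.5 for Sec24c, 10.1 and 9.93 for Sec24b, and 3.79 and 4.48 for Sec24a, with fitted log2 changes of 0.20, −0.02 and 0.24 against 0.59 for Sec24d. Sec23a stood at 27.2 and 38.1 CPM per kilobase and Sec23b at 10.1 and 11.4, with log2 changes of 0.49 and 0.17. For the Sar1 GTPases the order of the changes was the other way round, since Sar1a, at 75.0 and 92.0 CPM per kilobase, had a log2 change of 0.29 where Sar1b, at 61.0 and 52.0, had −0.23. Kdelr1, at 84.6 and 97.3 CPM per kilobase, had the smallest log2 change of the KDEL receptors, 0.20. The prolyl 4-hydroxylase subunits were ordered P4ha1, P4ha2 and P4ha3 in both genotypes, at 39.8, 7.04 and 4.87 CPM per kilobase in WT. No difference between relatives was tested.

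**Figure D2:**
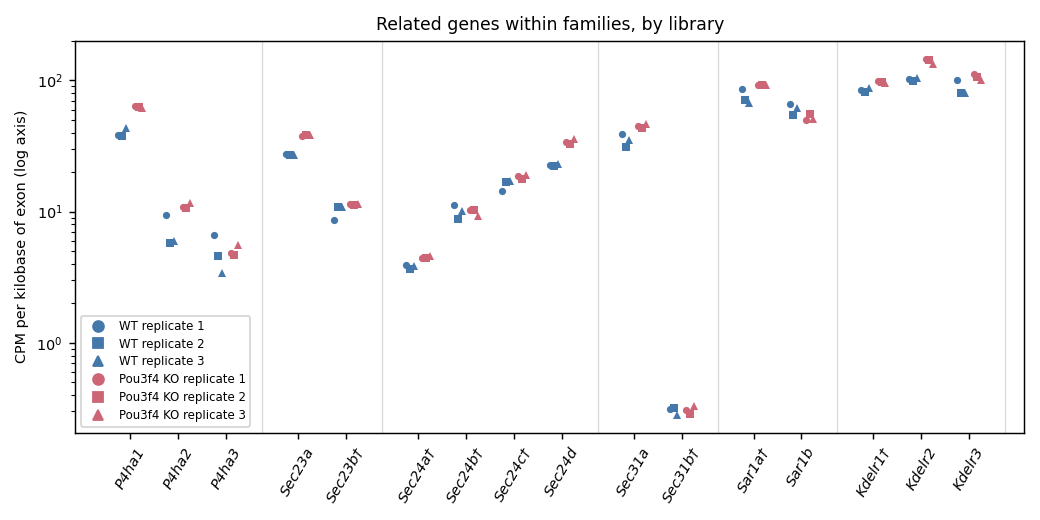
Each point is 1 library, in blue for WT and red for Pou3f4 KO, and the vertical log axis gives CPM per kilobase of exon for related genes set side by side. A dagger marks genes outside the 42 members. P4ha1, Sec23a and Sec24d hold the highest levels of their families and their KO points stand clear of their WT points, while Sec24b, Sec31b and P4ha3 overlap between genotypes.

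Of the 3 regulators, Tent5a had the largest change of all 42 members. It is a cytoplasmic poly(A) polymerase that lengthens the tails of collagen and other secretory transcripts in bone-forming cells. Tent5a (chromosome 9, 85320439 to 85327348, minus strand) stood at 62.6, 71.7 and 59.3 CPM in WT against 165, 146 and 157 CPM in KO. It rose 2.41-fold (1.27, SE 0.10, adjusted p = 0.0289), and its groups did not overlap. Creb3l1, or OASIS, an ER-bound transcription factor of osteoblasts that is released by cleavage and promotes collagen expression, stood at 151, 138 and 156 CPM in WT against 212, 184 and 193 CPM in KO. Its groups did not overlap and its change of 0.41 (SE 0.09, adjusted p = 0.109) did not pass. Tmem38b, an ER cation channel whose loss causes brittle bones, was spread over 27.0, 17.7 and 33.1 CPM in WT and lay at 18.8, 19.5 and 16.8 CPM in KO. WT replicate 2 lay among the KO libraries, so the fitted change of −0.50 (SE 0.22, adjusted p = 0.28) does not separate the genotypes.

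Outside the cell, 0 of 5 genes passed with edgeR (3 at an unadjusted p under 0.05). DESeq2 called Bmp1 and Pcolce higher. Bmp1, the protease that removes the carboxyl propeptide, stood at 308, 252 and 245 CPM in WT against 382, 354 and 384 CPM in KO (0.48, SE 0.11, adjusted p = 0.122). Pcolce, the enhancer of that cleavage, stood at 334, 283 and 247 CPM in WT against 433, 416 and 412 CPM in KO (0.55, SE 0.12, adjusted p = 0.11). In both, WT replicate 1 was the highest WT library and still lay below each KO library.

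The lysyl oxidases varied widely among the WT libraries, with a coefficient of variation of 42.9% for Loxl1, the highest of the 42 members, 31.5% for Lox and 29.6% for Loxl2. Lox, the most abundant of them per exon length, stood at 1063, 753 and 567 CPM in WT against 1008, 956 and 943 CPM in KO, so WT replicate 1 lay above the KO libraries and the others below. Its fitted change was 0.29 with all libraries (SE 0.22, adjusted p = 0.497), 0.54 without WT replicate 1 (adjusted p = 0.0437) and 0.09 without WT replicate 3. Loxl1, which crosslinks elastin, stood at 227, 106 and 124 CPM in WT against 102, 101 and 109 CPM in KO. Its fitted change moved from −0.55 to −0.16 without WT replicate 1. Loxl2, the member with the largest change in size of this role, stood at 215, 143 and 124 CPM in WT against 109.5, 106 and 109.6 CPM in KO (−0.57, SE 0.20, adjusted p = 0.193). Without WT replicate 1 its change was −0.32 (adjusted p = 0.0505).

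WT replicate 1 stood apart in other genes as well. The median distance of the members from the mean of the other libraries of the genotype, on the log2 scale, was 0.23 in it, 0.16 in WT replicate 2, 0.15 in WT replicate 3 and 0.037 to 0.052 in the KO libraries. Fibroblast markers summed to 3894 CPM in WT replicate 1, 1806 to 2040 CPM in the other WT libraries and 2634 to 2763 CPM in KO, and Col3a1 stood at 8479 CPM there against 1551 to 1734 CPM elsewhere. Other ER folding genes summed to 3033 CPM in WT replicate 1, against 3714 to 3732 CPM in the other WT libraries and 4391 to 4458 CPM in KO. Spiral ligament fibrocyte markers summed to 1476 CPM in it, 2837 to 2992 CPM in the other WT libraries and 1033 to 1069 CPM in KO. Among them Coch stood at 203 CPM in it, 779 to 852 CPM in the other WT libraries and 246 to 262 CPM in KO. Otor, at 277 CPM in it, stayed above its KO values of 127 to 138 CPM. The part of these differences in the results for the lysyl oxidases and for Pdia4 was not tested. Without WT replicate 1, edgeR called 29 members higher and 2 lower, against 3.6% and 5.46% of the genes tested in that fit. Without WT replicate 2 it called 9 members higher and 0 lower, against 1.41% and 2.37%.

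Markers of cells that the tissue could hold differed between the genotypes too. Osteoblast markers, cells that make much type I collagen, summed to 11444 to 15667 CPM in WT and 17916 to 19266 CPM in KO. Fitted changes were above 0 for 8 of 10, and 4 of 10 overlapped between groups. The 1 called higher, Spp1, held much of the difference in the sum, with means of 4388 CPM in WT and 8255 CPM in KO. Ibsp, the next most abundant, was level at 4856 and 4844 CPM (−0.004), and Mepe was lower (−0.34). Chondrocyte markers summed to 6152 to 7362 CPM in WT and 3154 to 3761 CPM in KO, with 8 of 8 changes below 0 and 1 call. The 1 called, Col2a1, made up most of these sums, with means of 6008 CPM in WT and 2813 CPM in KO. In 5 of the 8 the groups overlapped. Spiral ligament fibrocyte markers summed to 1476 to 2992 and 1033 to 1069 CPM. Of these, 3 of 7 were called lower, Otor, Car3 and Pou3f4 itself, whose fall the genotype fixes. Schwann cell markers summed to 4322 to 7960 and 3043 to 3476 CPM, with 3 of 7 called lower, erythroid markers to 1970 to 7293 and 1912 to 2991 CPM, and skeletal muscle markers to 204 to 9510 and 66.0 to 751 CPM. The erythroid and muscle sums overlapped between genotypes. So did those of the other lists: hair cell and supporting cell markers at 255 to 417 and 266 to 293 CPM, melanocyte markers at 92.1 to 149 and 144 to 171 CPM, neutrophil markers at 175 to 1017 and 741 to 812 CPM, endothelial markers at 351 to 522 and 394 to 436 CPM, and the fibroblast markers above. No marker of these lists had 0 counts in any library, so hair cell and fibrocyte markers of the labelled tissue were present in each. Pvalb was in both the hair cell and the skeletal muscle list, at 84.2 to 219 CPM in WT and 35.1 to 61.0 CPM in KO. Its CPM and the muscle sum were both highest in WT replicate 3, so the hair cell sum partly holds a muscle gene. The part of these cell types in the member results was not tested.

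The client of the machinery was compared with it inside each library, a ratio that needs no scaling between libraries. Type I collagen, Col1a1 and Col1a2 together, held 2.84 to 3.72% of all counts in WT and 6.29 to 7.07% in KO, and the 42 members held 0.986 to 1.03% and 1.27 to 1.30%. For each 1000 counts of type I collagen there were 277, 288 and 347 member counts in the WT libraries and 184, 204 and 193 in the KO libraries, or 304 ± 37.5 and 194 ± 9.75 (SD, n = 3 each). With this denominator every KO library lay below every WT library in each of the 6 roles. Because the share of type I collagen rose in KO, genes whose own share stayed level also fall on this ratio. No genes outside the members were put on it, so the fall is not particular to them. A second denominator summed 5 fibrillar chains: Col1a1, Col1a2, Col3a1, Col5a1 and Col5a2. It left out Col2a1, which fell (log2 change −1.09), and Col11a1 (0.08) and Col11a2 (0.28), which did not pass. How far the gap between genotypes depends on leaving these chains out was not tested. With the 5 chains, 2 roles overlapped. Regulators stood at 4.83 in WT replicate 1 and 5.11 to 5.19 in KO libraries. Chaperones stood at 73.9 in WT replicate 1 and 70.1 to 78.4 in KO libraries. Lysyl hydroxylation genes went from 19.5 ± 3.97 to 9.30 ± 0.534 per 1000 type I collagen counts, and chaperones from 116 ± 21.9 to 79.0 ± 4.62. The regulators, with Tent5a among them, came closest in proportion, at 7.35 ± 1.45 and 5.50 ± 0.0296. The ratio was not tested, since 3 libraries against 3 cannot give an exact two-sided permutation p below 0.10 and the direction was known beforehand.

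**Figure D3:**
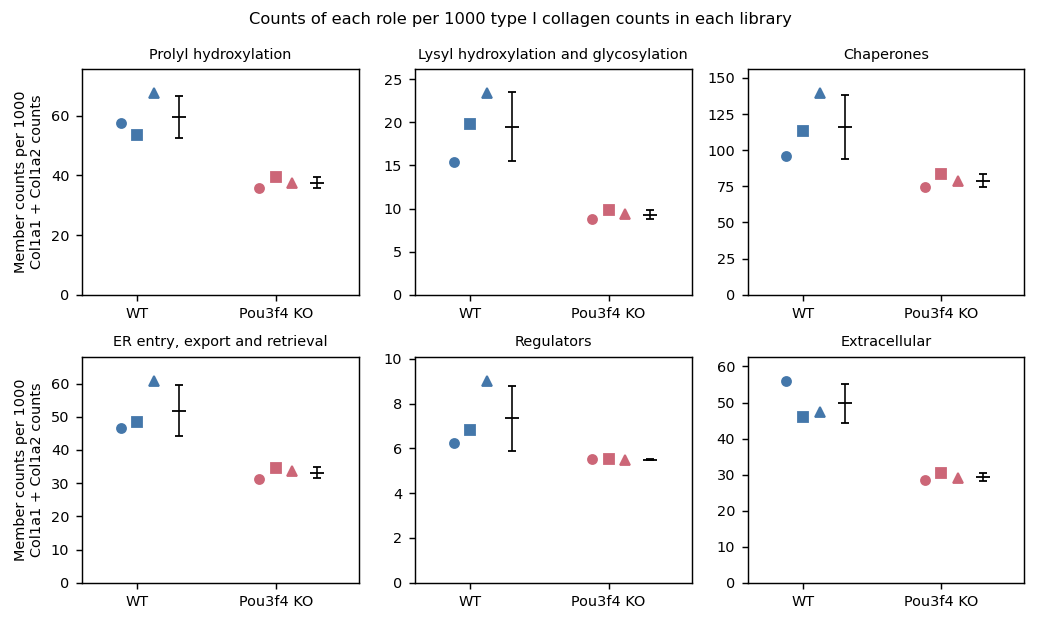
Each panel is 1 role, and each point is 1 library: the vertical axis gives counts of the role's members per 1000 counts of Col1a1 and Col1a2, and bars give the mean and SD of the 3 libraries of a genotype. With this denominator the KO points lie below the WT points in all 6 panels, with the widest gap in proportion for lysyl hydroxylation, at 19.5 against 9.30, and the closest approach for the regulators. The denominator held a larger share of counts in KO, which lowers the ratio of any gene with a level share.

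Collagen chains themselves moved in both directions. Of 6 genes of collagen I and its fibril partners, 2 rose, Col1a1 (1.01, SE 0.13) and Col1a2 (1.04, SE 0.14), both at an adjusted p of 0.049. Of 7 cartilage collagens, 3 fell: Col2a1 (−1.09, SE 0.10), Col9a1 (−0.79, SE 0.09) and Col9a3 (−0.70, SE 0.09). None of 6 basement membrane chains passed with edgeR or with DESeq2 (edgeR gave 0 an unadjusted p under 0.05), and Col4a1, with the highest mean CPM, stood at 722 ± 378 CPM in WT against 584 ± 36.3 CPM in KO.

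Other genes of the same pathways were taken from lists of pathway genes. Of 22 further genes of COPII coats and export, 17 had changes above 0, with a median of 0.19. The only one called was Sec16b, a scaffold of ER exit sites, which stood at 22.9, 19.6 and 17.6 CPM in WT libraries and 37.1, 37.8 and 40.9 CPM in KO libraries. It rose 1.93-fold (log2 change 0.95, SE 0.12, adjusted p = 0.049). Surf4, a cargo receptor with the highest mean CPM of the list, stood at 343 ± 27.9 and 417 ± 11.6 CPM (0.28, adjusted p = 0.176). Of 17 genes of the translocon and signal peptidase, 16 had changes above 0, with a median of 0.33, and 0 passed with edgeR (10 at an unadjusted p under 0.05; DESeq2 called 7 higher). Ssr3, a translocon-associated subunit, stood at 580 ± 50.4 and 753 ± 12.3 CPM (0.38, adjusted p = 0.131).

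Of 19 other ER folding genes, 18 had changes above 0, with a median of 0.32, and 0 passed with edgeR (6 at an unadjusted p under 0.05; DESeq2 called 3 higher). Calr, calreticulin, had the highest mean CPM, at 739 ± 203 and 913 ± 26.2 CPM (0.31, SE 0.20, adjusted p = 0.437). The regulators of the unfolded protein response, which senses misfolded protein in the ER, had a median near 0, at 0.10 over 16 genes. They were widely spread, from −2.14 for Trib3 (adjusted p = 0.157) to 1.64 for Creb3l3 (adjusted p = 0.063). By edgeR 0 of them passed (4 at an unadjusted p under 0.05). DESeq2 called 1 higher and 2 lower. The row used for Ddit3 was a locus of 105 bases that lies wholly within another Ddit3 entry. Mbtps1, the protease that cleaves ATF6 and CREB3L1, had the highest mean CPM at 192 ± 2.45 and 212 ± 15.0 CPM (0.15, adjusted p = 0.372). Singled out after their values were seen, Xbp1 stood at 132 ± 33.1 and 175 ± 7.54 CPM and Ppp1r15a at 71.4 ± 10.6 and 45.8 ± 7.57 CPM (adjusted p = 0.132). Of 12 tested genes of propeptide cleavage and crosslinking, 8 had changes above 0 and 0 passed with edgeR (5 at an unadjusted p under 0.05; DESeq2 called 2 higher). Sparc, a collagen-binding protein of bone, had the highest mean CPM, at 8878 ± 250 and 12557 ± 198 CPM (0.50, SE 0.08, adjusted p = 0.0599).

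**Figure D4:**
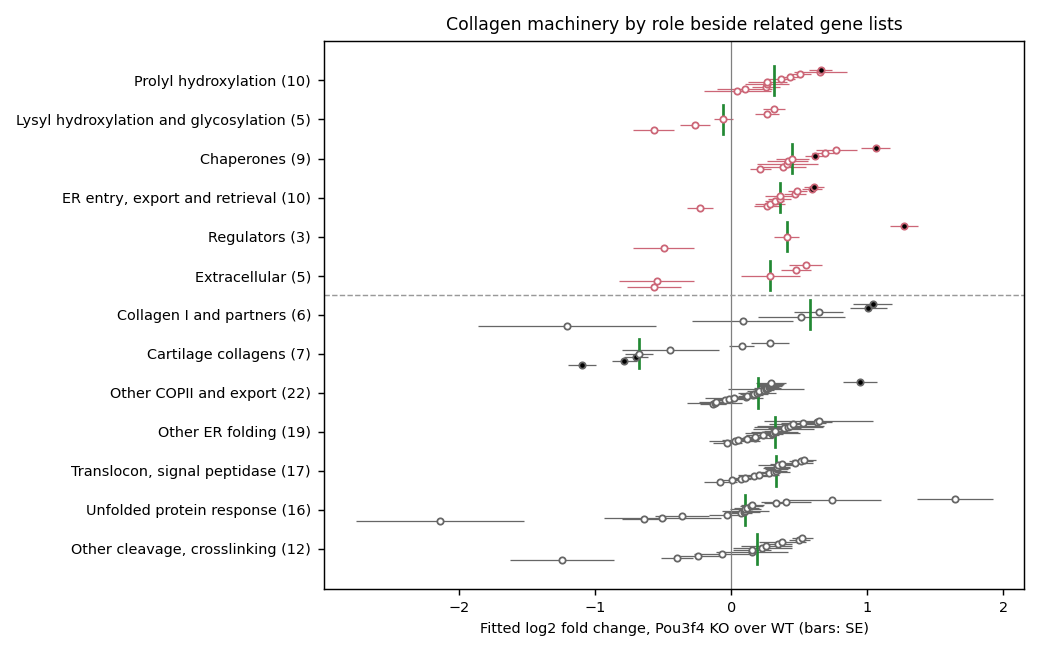
Each point is 1 gene with its SE, the horizontal axis is the fitted log2 fold change of KO over WT, and points filled black passed the threshold; the number of genes follows each name. Roles of the 42 members are in red above the dashed line and related lists in grey below it, and green ticks are medians. Chaperones have the highest median of the member roles with more than 3 genes, at 0.45, and lysyl hydroxylation the lowest, at −0.058.

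Promoters were examined because many members pointed the same way. RefSeq promoter windows on GRCm38.p6, the build of mm10, from 250 bases before to 50 bases after a transcript start, were at hand for 28 of the 42 members in 34 windows. They were searched on both strands for 4 motifs of ER stress: ERSE (CCAAT and CCACG with any 9 bases between them), ERSE-II (ATTGG and CCACG with any 1 base between them), the UPRE core (TGACGTG) and the amino acid response element CARE (TGATGNAA). The UPRE core was in windows of 5 of the 28 members, Fkbp11, Kdelr3, Mia3, Sec23a and Sec24d, or 14.71% of their windows against 2.01% of all 32851 windows. It was also in 3 of 27 windows of the other COPII and export genes (11.11%), Sec16b among them. Of the other ER folding genes, 2 of 19 windows held it (10.53%). So did 1 of 6 windows of the cartilage collagens, that of Col11a2, and 1 of 10 of the cleavage and crosslinking genes. It was in 0 of 13 translocon and signal peptidase windows and 0 of 18 of the unfolded protein response regulators. Collagen I and its partners had it in 0 of 3 windows and the basement membrane chains in 0 of 5. ERSE was in 1 of the 28, Hsp90b1, and in 7 of 15 other ER folding genes with a window, Calr, Canx, Creld2, Dnajc3, Ero1b, Hspa5 and Pdia6, against 0.12% of all windows. ERSE-II and CARE were in 0 of the 28. Median GC content was 62.7% for the member windows and 52.7% for all windows, so the base composition differs. A match is a description of letters, and no binding was measured.

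The stretches that carry the matches are shown 5′ to 3′ on the strand of the gene, with the letters fixed by the motif in capitals. They are Fkbp11 (chr15:98727610-98727638, minus strand, at a second, downstream start of the gene), Sec24d (chr3:123267459-123267487, plus), Sec23a (chr12:59011994-59012022, minus), Mia3 (chr1:183369595-183369701, minus), Kdelr3 (chr15:79516329-79516407, plus) and Hsp90b1 (chr10:86705510-86705694, minus). The first 3 matches lie in annotated exon sequence and are shown within 29 bases.
Fkbp11: cccggctgaaaCACGTCAgctttggcttg
Sec24d: gcccgggcgccTGACGTGgcactagcaac
Sec23a: ctcctccccttTGACGTGgcagaggcggc
Mia3: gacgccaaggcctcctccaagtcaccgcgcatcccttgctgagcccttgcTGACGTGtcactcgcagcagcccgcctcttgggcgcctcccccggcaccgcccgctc
Kdelr3: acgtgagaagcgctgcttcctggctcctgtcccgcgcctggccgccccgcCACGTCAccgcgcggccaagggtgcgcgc
Hsp90b1: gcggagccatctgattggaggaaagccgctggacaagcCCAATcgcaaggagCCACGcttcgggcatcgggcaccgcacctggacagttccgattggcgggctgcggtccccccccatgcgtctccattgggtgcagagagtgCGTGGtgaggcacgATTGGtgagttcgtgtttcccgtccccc
Sec24d and Sec23a, partners in the inner COPII coat, hold the core in the direction of the gene followed by gca, 20 to 26 bases before the start of Sec24d and 7 to 13 bases after that of Sec23a counted over the core. Fkbp11 and Kdelr3 hold the core on the other strand. Hsp90b1 holds 2 copies of ERSE, 1 on each strand, within 212 bases before its start. Of the 6 members that rose, Fkbp11 and Sec24d had a match, P4ha1, Fkbp14 and Tent5a had none of the 4 motifs in their windows, and Lman1 had no window at hand.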

How the data were processed

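RNA of 6 mouse inner ear samples was extracted with TRIzol and made into TruSeq Stranded mRNA libraries, per the labels' protocols. Reads were processed with Trimmomatic, HISAT2, Cufflinks and HTSeq on mm10, per the submitters' processing notes; for their versions, the annotation release and the strand setting, nothing is stated (not given in the sources used here). All values used are read counts per gene as the authors deposited them. Genes with too few counts were removed with filterByExpr (minimum count 10), libraries were scaled by TMM, and WT and KO were compared with edgeR 4.0.16 (quasi-likelihood F test, Benjamini-Hochberg adjustment, threshold 0.05). The SE is the log2 fold change over the square root of F, and 95% intervals use the t quantile at the degrees of freedom of that test. Values per kilobase used GENCODE M21 exon unions. The edgeR fit was tested on simulated counts. Alternatives were DESeq2 1.42.0, limma 3.58.1 (voom), other scalings and filters, a replicate block, an Xist term and leaving out each library.

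The 42 members and all gene lists were chosen with earlier results of these data known. Every member was described, with library values for those on which a result turned. From the related lists the called genes (at most 3) and the gene of highest mean CPM were named, and other names were chosen after their values were seen. Total counts of 18409409 to 23323953 put 3 counts at 0.130 to 0.167 CPM.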

Additional observations from a re-analysis of the deposited data

How the results depend on the processing

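The 6 members called higher were also called in 6 edgeR fits with another scaling or filter and with limma-voom, which called 6 to 8 higher and 0 lower. DESeq2 called 23 higher and 1 lower. With a replicate block 0 were called higher, and with an Xist term 0, in fits that called 1 and 0 of all genes tested. At an unadjusted p under 0.05 each left 28 members, beside 2992 and 3185 of all genes tested. Leaving out 1 library gave 0 to 29 higher and 0 to 2 lower: 29 without WT replicate 1, 9 without WT replicate 2, and 0 without WT replicate 3 or any 1 KO library. The median member change ranged from 0.31 to 0.42 over the fits that left out 1 library. Same-numbered libraries did not deviate together (correlations −0.131, −0.295 and −0.191), so the numbers were not taken as pairs. The difference in member counts per 1000 collagen counts was −110.2, or −80.8 over the 5 fibrillar chains named above. When 1 library was left out, the difference was −124 to −88.8. P4ha3 ranged from −0.16 without WT replicate 3 to 0.32 without WT replicate 1 and was −0.02 without KO replicate 3, and P3h3 ranged from −0.056 without WT replicate 3 to 0.36 without WT replicate 1; the cause was not tested. With 3 libraries a genotype, 1 library can decide a call; whether depth or spread limits it was not tested.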
